A study of Mus musculus with 12 samples.

Results

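Resting B cells (RB cells) that received no stimulus were hybridised on 2 of the 12 arrays of the series, and the genes read on both of them are described here. A gene was counted as expressed when at least 1 of its probes was well above background, by the scanner software's own call, on both unstimulated arrays, and its brightest such probe gave its level. By this rule 22400 of the 50090 gene names on the array were expressed. Among names that are gene symbols, 11892 of 20789 (57.2%) were expressed, against 3679 of 8622 predicted or accession-type names (42.7%) and 6829 of 20679 probes for noncoding RNA (33.0%). A level is the log2 of the processed signal minus the array's 75th percentile, so 0 is the 75th percentile. Probes differ in how well they bind, so a level ranks probes and does not measure abundance between genes.

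The cells came from spleens of female BALB/c mice aged 6 weeks per the labels, with no genotype given beyond the strain. They were isolated by negative selection with antibodies that include anti-CD43, which CD43-negative resting B cells escape. The other 10 arrays held RB cells given Pam2csk4 (a synthetic lipopeptide ligand of TLR-2), anti-CD86, anti-CD86 and Pam2csk4, anti-CD40, or anti-CD40 and Pam2csk4, with 2 arrays per condition. The labels give 4 h of stimulation for every array, unstimulated ones included, and do not say whether the unstimulated cells were cultured for that time, nor whether the 2 replicates came from separate animals or pools.

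A resting B cell is a small lymphocyte outside the cell cycle that waits for antigen. It carries an antigen receptor made of membrane immunoglobulin and the signalling chains Cd79a and Cd79b, takes up and presents antigen on MHC class II, and recirculates between blood and the follicles of spleen and lymph node under the control of chemokine receptors. Inhibitory receptors with Fc or sialic acid binding domains hold the receptor signal down until antigen and T cell help arrive.

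The unstimulated arrays agreed closely. Over 27006 probes well above background on both, the median absolute difference was 0.073 on the log2 scale, and the SD between spots of one probe within an array was 0.056. The pair of anti-CD40 and Pam2csk4, which also lay on one slide, differed by a median of 0.086, while the 4 pairs split between slides differed by 0.208 to 0.314. An unstimulated array differed from a stimulated array of the same slide by 0.185 to 0.330. Spots well above background made up 50.6% and 46.7% of the unstimulated arrays, within the range of 46.6% to 60.6% over all 12, and 1206 and 1113 of their spots were saturated. A saturated spot has no order among other saturated spots and gives only a lower bound.

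The rule left 3112 probes that were well above background on 1 unstimulated array only and 29982 on neither. The gene symbols of lowest mean level inside it were Chit1 (-3.95 and -3.52), Jazf1 (-3.95 and -3.50) and Igf2bp2 (-3.95 and -3.47). Those of highest mean outside it were Hist1h3f (-1.46 on replicate 1, no value on replicate 2), 1700125D06Rik (0.37 and -4.42) and Rhox1 (-4.17 and -0.51). Each of these was detected on 1 array only, and the 2 readings of 1700125D06Rik and of Rhox1 lay far apart. The median level of the expressed gene symbols was 1.12, with quartiles at -1.04 and 3.21, and the median over all gene symbols on the array was -2.23. Of the expressed symbols, 11089 were well above background on all 12 arrays. By the biotype of RefSeq, protein-coding genes were expressed in 11785 of 20577 cases (57.3%), pseudogenes in 1492 of 2006 (74.4%) and lncRNAs in 235 of 1061 (22.1%).

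Genes of ribosomal proteins filled the top of the signal range. Of 86 ribosomal protein symbols 83 were expressed and 67 were saturated on at least 1 unstimulated array, against 191 saturated among all 11892 expressed symbols. The 30 symbols with the highest signal held 16 of them, among them Rpl32 (7.77 and 7.96), Rps3a (7.74 and 7.92) and Rps2 (7.74 and 7.89). The others of the 30 included the chaperone gene Hsp90aa1 (7.75 and 7.88), the AP-1 member Jund (7.72 and 7.85), the myosin light chain gene Myl6 (7.73 and 7.87), the apolipoprotein gene Apoe (7.66 and 7.87), the antiproliferative gene Btg1 (7.70 and 7.80) and Ltb (7.68 and 7.81), which encodes lymphotoxin beta. All of the 30 were saturated on at least 1 unstimulated array, so no order among them can be read. Below saturation, the highest levels were those of H2afj (7.50 and 7.72), Itprip (7.54 and 7.65) and Dazap2 (7.52 and 7.64).

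Predicted names made up 671 of the 1007 saturated genes, and their probes often repeat those of ribosomal genes. A run of at least 20 bases was shared with the probe of an expressed gene symbol by 189 of these 671 (28.2%), 169 of them with a ribosomal protein symbol, against 375 of the 3008 unsaturated predicted names (12.5%). The Rps2 probe shared such a run with 19 saturated predicted names. Stretches of 4 of these probes are shown because they hold one run of sequence in common, with the run common to all 4 stretches in capitals.
Rps2: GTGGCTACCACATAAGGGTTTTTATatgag
Gm15653: GTGGCTACCACATAAGGGTTTTTATacaag
Gm7638: GTGGCTACCACATAAGGGTTTTTATgcaag
LOC671929: GTGGCTACCACATAAGGGTTTTTATacgag
All 4 probes were saturated on both arrays, at 7.66 and 7.84 for Gm15653, 7.53 and 7.73 for Gm7638 and 7.50 and 7.70 for LOC671929. Whether these probes read their own transcript or that of Rps2 was not tested, and the count of expressed predicted names is uncertain to that extent.

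Genes were also grouped into 31 lists by known function or cell type. The plots of detection and of level by list show that lists of B cell function and of other blood cells were detected nearly whole, platelets and germinal centre genes apart, and that most genes of the solid tissue lists fell below background, liver apart.

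**Figure D1:**
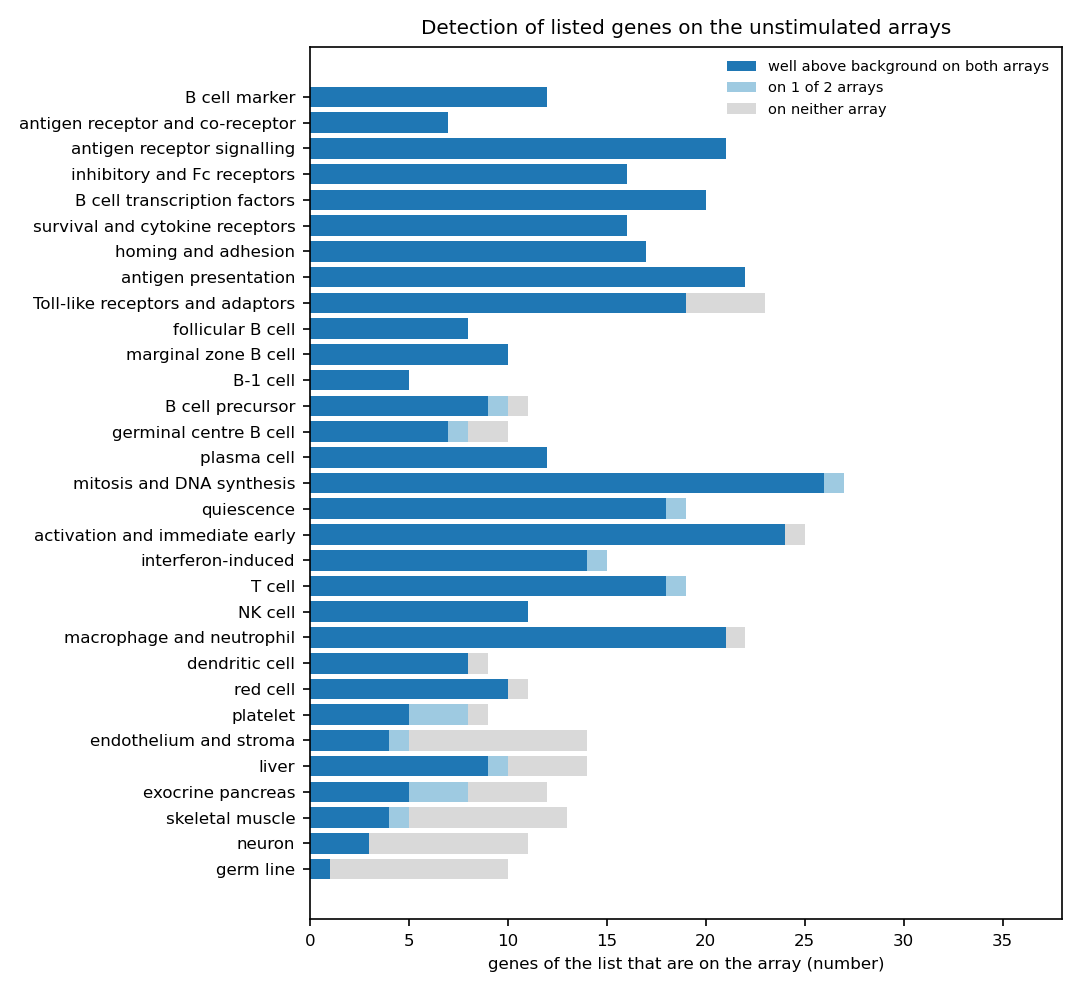
Detection of the gene lists in unstimulated RB cells. Bars give the number of genes of each list on the array, split by whether the gene was well above background on both, on 1 or on neither of the 2 unstimulated arrays; the B cell marker list stands at 12 of 12, the neuron list at 3 of 11 and the germ line list at 1 of 10.

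**Figure D2:**
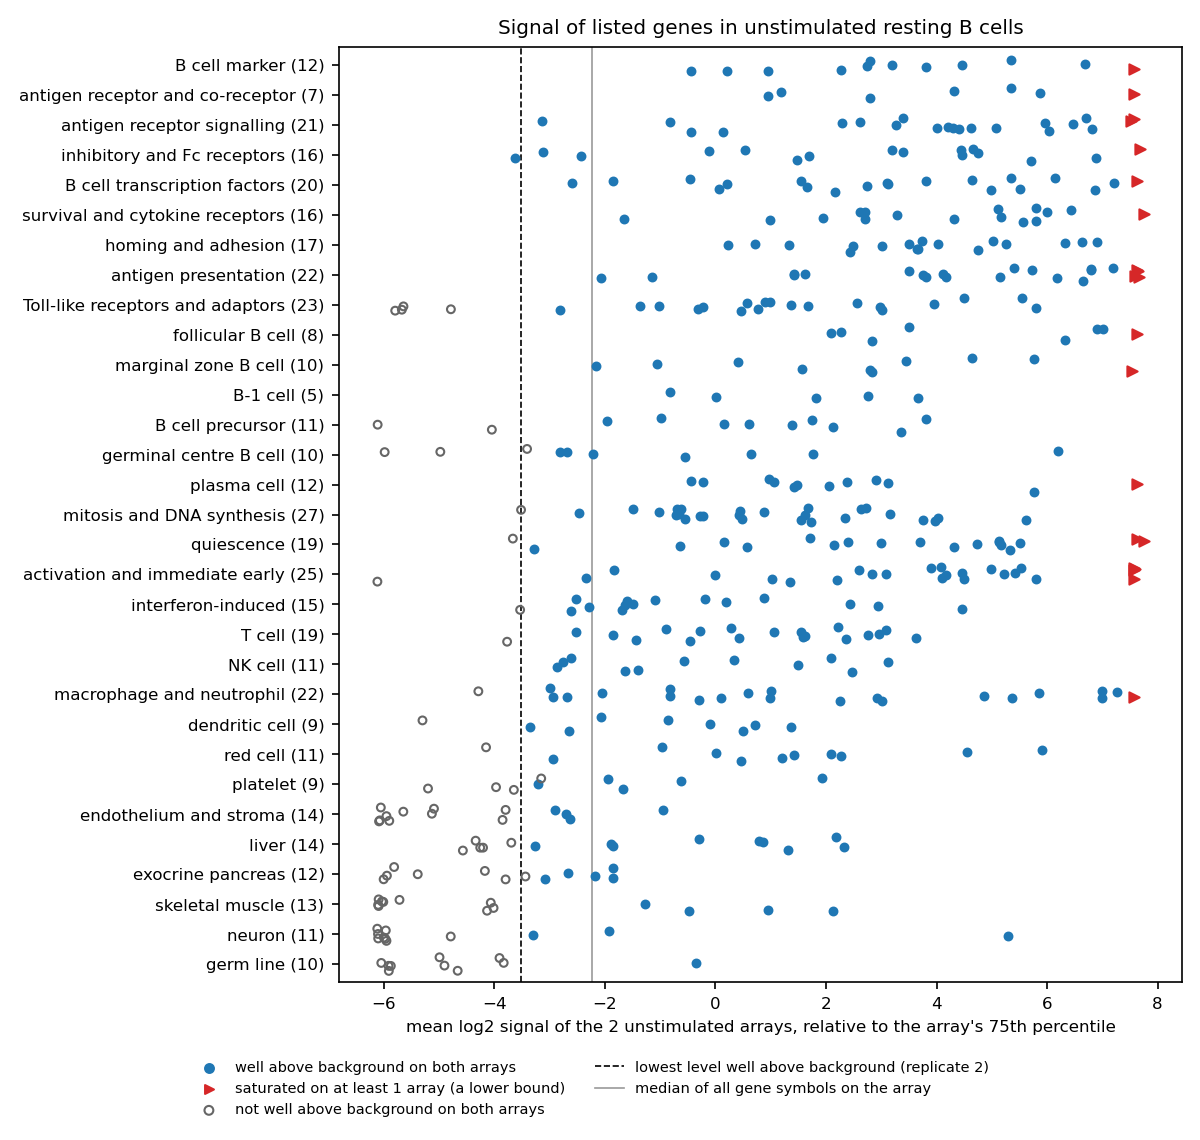
Level of each listed gene in unstimulated RB cells, as the mean of 2 arrays of log2 processed signal relative to the array's 75th percentile. Each point is a gene, a triangle is a saturated spot and so a lower bound, and an open circle is a gene not well above background on both arrays; the dashed line marks the lowest detected level of replicate 2 (-3.52) and the grey line the median of all gene symbols (-2.23). The median lies at 2.99 for the B cell markers and at -5.96 for the neuron list.

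Markers of B cells were read first. All 12 B cell markers were expressed, against 57.2% of all gene symbols, with a median level of 2.99. Detection alone cannot establish B cell identity, since NK cell genes were expressed in 11 of 11 cases and plasma cell genes in 12 of 12. The signalling chain Cd79b was saturated, and Ms4a1, which encodes CD20, stood at 6.68 and 6.69. The complement receptor gene Cr2 gave 2.78 and 2.81 and Fcer2a, which encodes CD23, 2.28 and 2.26. The lowest levels belonged to Blk (-0.39 and -0.51), a Src family kinase, and to Pax5 (0.21 and 0.22), the factor that holds B cell fate. Both arrays read each of these genes closely alike.

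The antigen receptor list was expressed in 7 of the 7 genes on the array. The probe named Igh-6, described in the files as mRNA of the mu heavy chain, gave 4.35 and 4.29; its best match to another immunoglobulin probe was 25 of 60 bases, and the transcript it binds was not checked. Cd79a gave 0.91 and 1.01. The tetraspanin Cd81 gave 5.84 and 5.90. Ighd, Igkc and Iglc1 had no probe under those names.

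All 21 genes of antigen receptor signalling were expressed, with a median level of 4.29. The kinase genes Lyn (5.06 and 5.09), Syk (4.25 and 4.33) and Btk (4.60 and 4.66) act just below the receptor. The adaptor gene Blnk and Pik3cd, the catalytic subunit of phosphoinositide 3-kinase in lymphocytes, were saturated. Plcg2, the phospholipase that releases calcium, gave 6.45 and 6.48. Bcl10 (5.95 and 5.99) and Malt1 (3.36 and 3.44), which link the receptor to NF-kappaB, were both read. The lowest of the list was Itpkb at -3.12 and -3.14.

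Genes of inhibitory and Fc receptors were expressed in all 16 cases, with a median level of 3.29 and a wide range. Cd52, a small surface glycoprotein, was saturated, and Faim3 (Fcmr in RefSeq, the IgM Fc receptor) gave 6.81 and 6.97. The phosphatase genes Inpp5d (5.69 and 5.74) and Ptpn6 (4.63 and 4.69), which inhibitory receptors recruit, were well above the 75th percentile. Fcgr2b, the inhibitory IgG receptor, gave 3.35 and 3.42 and Cd22, a sialic acid binding inhibitor, 3.19 and 3.19. At the low end stood Fcrl5 (-3.12 and -3.13) and Gapt (-3.87 and -3.38), the latter well above background on 3 of the 12 arrays.

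Promoters of these receptor genes were searched because PU.1, encoded by Spi1, is a known regulator of myeloid and B cell genes. The windows ran from 250 bases before to 50 bases after each gene's start in RefSeq (GRCm38.p6), and both strands were searched. The letters of a PU.1 site, GAGGAAGT, occurred in 6 of the 15 genes of this list that had a window (40%), against 997 of 27025 genes with a window (3.69%). They occurred in 0 of 4 antigen receptor genes and 0 of 17 B cell transcription factor genes. The octamer ATTTGCAT was in no window of these 3 lists, against 1.97% of all genes, and TATAAA was in 4 of 15, 1 of 4 and 2 of 17 genes, against 15.7%. The 6 matches are shown with the motif in capitals, on the strand of the gene, where ACTTCCTC is the motif read on the opposite strand.
Inpp5d, chr1:87620252-87620311, plus strand: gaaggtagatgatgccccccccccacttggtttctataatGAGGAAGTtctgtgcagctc
Fcrl1, chr3:87376327-87376386, plus strand: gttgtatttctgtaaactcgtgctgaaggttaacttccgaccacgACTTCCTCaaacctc
Cd72, chr4:43454642-43454701, minus strand: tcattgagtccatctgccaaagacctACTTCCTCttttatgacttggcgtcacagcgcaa
Lilrb3 (Pirb in RefSeq), chr7:3720469-3720528, minus strand: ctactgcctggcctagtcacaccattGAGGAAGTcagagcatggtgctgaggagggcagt
Gapt, chr13:110357251-110357310, minus strand: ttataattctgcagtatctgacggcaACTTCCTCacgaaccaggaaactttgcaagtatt
Btla, chr16:45224277-45224336, plus strand: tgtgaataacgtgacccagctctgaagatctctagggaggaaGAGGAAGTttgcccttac
All 6 stretches lie before the start. A match in these letters is a description of the sequence and was not tested for binding. The 6 genes spanned the range of the list, from Inpp5d (5.69 and 5.74), Cd72 (4.73 and 4.78) and Lilrb3 (4.39 and 4.50) through Fcrl1 (1.49 and 1.45) and Btla (0.57 and 0.51) to Gapt.

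All 20 B cell transcription factors were expressed, with a median level of 3.12. Klf2, a factor of lymphocyte quiescence and trafficking, was saturated. Ets1 (7.12 and 7.31), the octamer co-activator gene Pou2af1 (6.84 and 6.89), Irf8 (6.10 and 6.19) and Foxo1 (5.52 and 5.50) followed below saturation. Bach2, which holds back plasma cell differentiation, gave 4.99 and 4.99, and Ebf1, which acts with Pax5 in specifying the lineage, 2.70 and 2.77. Sfpi1 (Spi1 in RefSeq, PU.1) was low at -1.85 and -1.85, and its relative Spib stood at 3.76 and 3.85. The lowest was Tcf3 at -2.67 and -2.52.

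The survival and cytokine receptor list was expressed in all 16 cases, with a median level of 4.71. It also holds the ligand gene Ltb and the cell death regulators Bcl2, Mcl1, Bcl2a1a and Bcl2l11. Tnfrsf13c, the BAFF receptor that naive B cells need to survive, gave 5.81 and 5.80, and the related Tnfrsf13b, which encodes TACI, -1.54 and -1.76. The interferon gamma receptor chains Ifngr1 (6.41 and 6.46) and Ifngr2 (5.86 and 5.75) were high. Il4ra stood at 5.05 and 5.16, Cd40 at 2.71 and 2.72 and Il21r at 0.96 and 1.00. Among regulators of cell death, Mcl1 gave 5.56 and 5.58, Bcl2l11, which encodes the death-promoting Bim, 5.16 and 5.19, and Bcl2 2.71 and 2.69.

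The 17 homing and adhesion genes were all expressed as well, none saturated, with a median level of 3.66. The chemokine receptor genes Ccr7 (6.88 and 6.94), Cxcr4 (6.59 and 6.68) and Cxcr5 (6.37 and 6.28), which guide B cells to T zones, marrow and follicles, were the highest. Gpr183, a receptor for oxysterols, gave 4.75 and 4.76. S1pr1, through which lymphocytes leave lymphoid tissue, gave 3.66 and 3.64.

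Antigen presentation had the highest median level of the 31 lists, at 5.28, with all 22 genes expressed. Cd74, the invariant chain, H2-Ab1, B2m and H2-K1 were saturated. Ctss, the protease that trims the invariant chain, gave 7.15 and 7.22, and H2-Aa 6.76 and 6.84. The peptide exchange gene H2-DMb1 gave 6.65 and 6.64 and H2-Oa, part of the inhibitor of that exchange, 5.38 and 5.42. The costimulatory ligand genes were lower, with Icosl at 3.78 and 3.86, Cd86, the target of one of the antibodies used here, at 1.41 and 1.43, and Cd80 at -1.96 and -2.17.

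Of the 23 Toll-like receptor and adaptor genes 19 were expressed. Tlr2, the receptor for Pam2csk4, gave 2.52 and 2.59, and the co-receptor genes Tlr6 and Tlr1 gave 1.00 and 0.96 and 0.59 and 0.53. The nucleic acid sensors Tlr9 (1.35 and 1.39) and Tlr7 (0.53 and 0.39) and their transporter Unc93b1 (5.80 and 5.78) were also read. Tlr4 was low at -1.38 and -1.35. Tlr3, Tlr5, Tlr8 and Cd180 were on neither array, which says only that their probes did not rise above background. Myd88, the adaptor that most of these receptors use, gave 2.97 and 2.98.

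Markers of B cell subsets did not single out one of them. All 8 follicular markers on the array, all 10 of marginal zone cells and all 5 of B-1 cells were expressed, with medians of 4.91, 2.82 and 1.81. The marginal zone genes Cd9 (4.62 and 4.67) and Cd1d1 (3.45 and 3.43) and the B-1 marker Spn (3.65 and 3.68), which encodes CD43, the antigen used for the negative selection, were among them. Precursor genes were expressed in 9 of 11 cases. Rag2 was on neither array, and Rag1, its partner in receptor gene rearrangement, gave -2.00 and -1.94. Dntt, the enzyme that adds bases at the joints of rearranged genes, gave 1.75 and 1.74, and Kit, a receptor of progenitors, 3.36 and 3.36.

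Germinal centre genes had a median level of -2.45 and were expressed in 7 of 10 cases. Bcl6, the factor of that reaction, gave 6.11 and 6.29. S1pr2 was well above background on 1 array only, while Mybl1 and Gcet2 (Gcsam in RefSeq) were on neither array. Plasma cell genes were expressed in all 12 cases. Igj (Jchain in RefSeq), the chain that joins immunoglobulins, was saturated, while Prdm1, the factor that drives plasma cell differentiation, was low at -0.22 and -0.22 and Xbp1, a factor of secretion, gave 3.13 and 3.10. In a bulk sample, fewer cells of a type and less RNA per cell cannot be told apart.

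Genes of mitosis and DNA synthesis were expressed in 26 of 27 cases, with a median level of 0.48, and genes of quiescence in 18 of 19, with a median of 3.71. Among the former, Birc5 (5.61 and 5.63), Cdc20 (4.04 and 4.02) and Mki67 (3.97 and 3.97), the gene of the Ki-67 antigen, were highest, and Kif11 (-3.35 and -3.68), a kinesin of the spindle, was well above background on 1 array only. Among the latter, Btg1 and Klf2 were saturated, and Foxo1, Klf4 (5.31 and 5.34), Tsc22d3 (5.12 and 5.14) and Pik3ip1 (5.15 and 5.18) were well above the 75th percentile. Cdkn1b, the inhibitor p27, gave 2.09 and 2.18.

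Immediate early and activation genes were also read in unstimulated cells, in 24 of 25 cases. Junb, Nr4a1, Cd83 and Nfkbia were saturated. Tnfaip3, a brake on NF-kappaB, gave 5.80 and 5.79, Ier2 5.46 and 5.39, Myc 4.95 and 5.02 and the early marker Cd69 4.16 and 4.16. The list's exception was the chemokine gene Ccl22, on neither array, and the interleukin 2 receptor gene Il2ra was low at -1.85 and -1.82. Interferon-induced genes were expressed in 14 of 15 cases at a median of -1.49, with Bst2 (4.42 and 4.51) the highest, and Ifit2 (-3.50 and -3.56) was detected on 1 array only.

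Markers of other blood cells were detected beside those of B cells. T cell genes were expressed in 18 of 19 cases, NK cell genes in 11 of 11, macrophage and neutrophil genes in 21 of 22, dendritic cell genes in 8 of 9, red cell genes in 10 of 11 and platelet genes in 5 of 9. The neutrophil granule genes were the brightest of these, with S100a9 saturated and Mpo at 7.24 and 7.27 and Camp at 7.03 and 6.97. The T cell receptor chain gene Cd3d gave 3.10 and 3.08 and Thy1 3.61 and 3.65, while Cd4 was well above background on 1 array only. The haemoglobin genes Hbb-b1 and Hba-a1 gave 5.90 and 5.91 and 4.57 and 4.54. The macrophage complement gene C1qa and the dendritic cell gene Cd209a were on neither array. The log2 of the summed linear signal of each list was 5.93 and 5.97 for T cells, 4.62 and 4.60 for NK cells and 9.54 and 9.59 for macrophages and neutrophils, against 5.47 to 5.91, 3.88 to 4.40 and 9.05 to 9.47 on the stimulated arrays. The unstimulated arrays thus lay above all stimulated ones in these 3 sums, as they did for platelets (2.39 and 2.52 against 1.56 to 2.20), but not for red cells (6.65 and 6.65 against 6.09 to 6.88) or dendritic cells (2.95 and 2.92 against 2.45 to 3.57). The pattern was not particular to other blood cells. It held for B cell transcription factors (9.457 and 9.558 against 8.974 to 9.454) and B-1 genes (4.60 and 4.63 against 4.13 to 4.40). The margin was narrow for those factors, whose sum includes saturated Klf2, and for T cells. The pattern did not hold for B cell markers (8.60 and 8.71 against 8.51 to 9.08) or all gene symbols (17.20 and 17.25 against 16.89 to 17.29). Whether other cells in the preparation or B cells gave the signals of the other blood cell lists was not tested.

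Genes of solid tissues were mostly below background. Endothelium and stroma were expressed in 4 of 14 cases, skeletal muscle in 4 of 13, exocrine pancreas in 5 of 12, neurons in 3 of 11 and the germ line in 1 of 10, each below the 57.2% of all gene symbols. The endothelial receptor genes Kdr, Tek and Tie1, Cdh5 and the collagen genes Col1a1 and Col3a1 were on neither array, and neither were the neuron genes Snap25, Syt1 and Gria2. Exceptions stood out, with Syn1, a synaptic vesicle protein gene, at 5.56 and 5.02 and the muscle troponin genes Tnni2 (2.16 and 2.11) and Tnnc2 (0.88 and 1.03). The transcripts these probes bind were not checked.

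The unstimulated arrays were then compared with the stimulated ones, to ask which part of the resting profile differs from that of stimulated cells. The difference given is unstimulated minus the mean of the 5 stimulated conditions, from limma with slide as a term and Benjamini-Hochberg adjustment over 31599 probes. Among gene symbols tested, 4050 of 12670 (32.0%) were higher in unstimulated cells and 1666 (13.1%) lower, at a median difference of 0.11. Over all probes, 6742 were higher and 4937 lower, so that 57.7% of the calls were higher. Centred on the array median in place of the 75th percentile, 513 probes were higher and 651 lower, so that 44.1% were higher, and among gene symbols 296 and 175. The adjusted p-values measure the spread between these arrays, which may be technical, and the close agreement of the unstimulated pair feeds into them. With the 2 same-slide pairs counted as 1 sample each, a choice made after seeing the data, 1231 gene symbols were higher and 572 lower. Array-median centring moved every difference alike, by 0.048, so the differences kept their size while most calls were lost. The array median lies near the detection limit, so this centring rests on dim spots. On the unstimulated arrays the median processed signal was 23.6 and 20.8, and the lowest detected signal 21.0 and 26.7. Of the 213 named genes called, 38 were also called after array-median centring and 32 under every setting run.

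**Figure D3:**
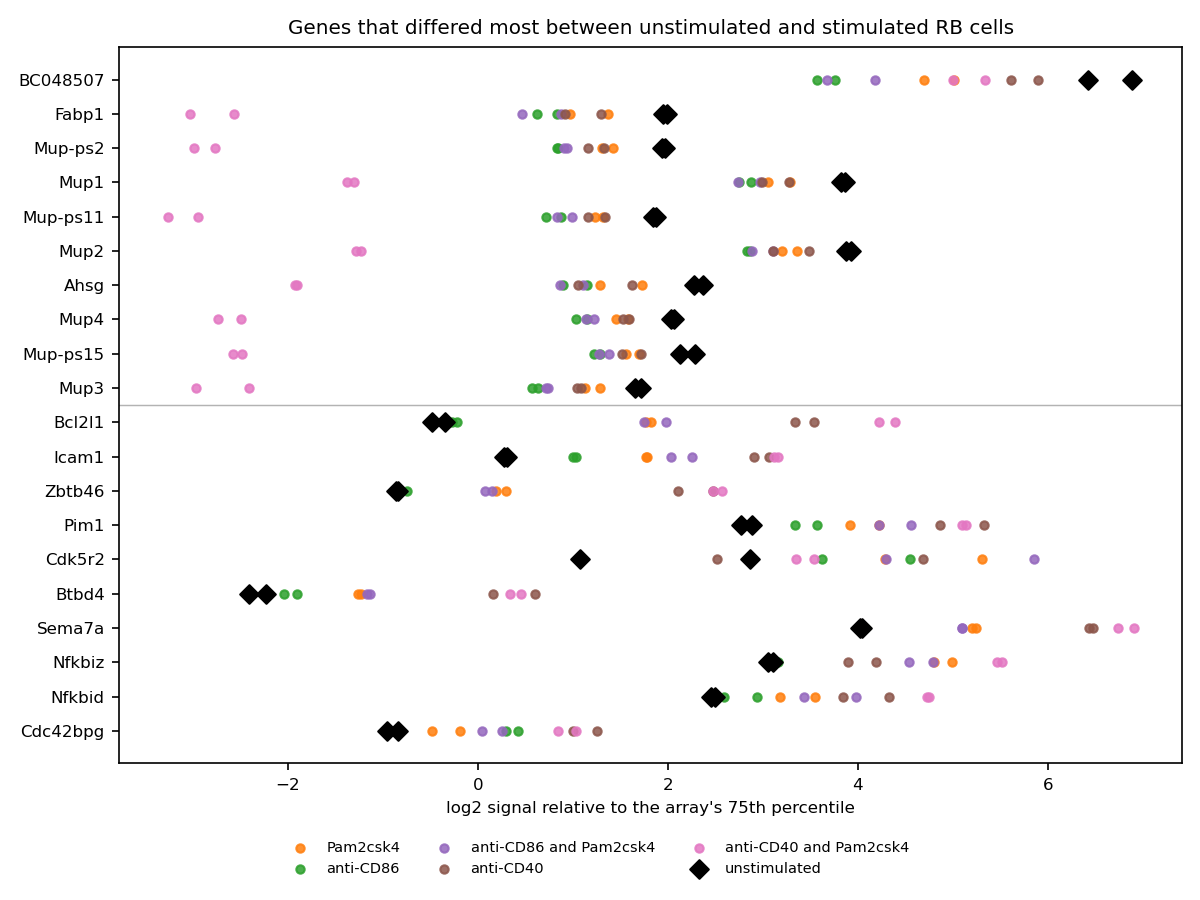
The 10 genes highest and the 10 lowest in unstimulated RB cells against the mean of the stimulated conditions. Circles are single stimulated arrays in the colour of their condition and diamonds the unstimulated ones. Values are log2 processed signal relative to the array's 75th percentile. Each Mup entry reads alike on the 2 unstimulated arrays, from 1.65 for Mup3 to 3.92 for Mup2, and drops on the anti-CD40 and Pam2csk4 arrays. Bcl2l1 spans -0.48 to 4.39.

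Of the 10 genes named as lowest in unstimulated cells, Bcl2l1, Icam1, Pim1 and Nfkbid are described first, beside Il2ra from the activation list. Bcl2l1, which encodes the survival protein Bcl-xL, gave -0.35 and -0.48 unstimulated and -0.28 to 4.39, median 1.90, on the 10 stimulated arrays, without overlap, for a difference of -2.69 ± 0.081 (SE; adjusted p = 8.16e-05). Its stimulated means ran from -0.25 with anti-CD86 to 4.31 with anti-CD40 and Pam2csk4, so the unstimulated cells lay near the anti-CD86 cells. Il2ra, chain alpha of the interleukin 2 receptor, gave -1.85 and -1.82 against -1.97 to 2.48, which overlap, with a difference of -2.24 ± 0.081 (adjusted p = 0.000114). Icam1, an adhesion ligand, gave 0.31 and 0.27 against 1.00 to 3.16, median 2.14, without overlap, and a difference of -1.96 ± 0.056 (adjusted p = 8.16e-05). The kinase gene Pim1 stood at 2.77 and 2.88 against 3.34 to 5.33, again without overlap, with a difference of -1.73 ± 0.059 (adjusted p = 0.000114). Nfkbid, a nuclear regulator of NF-kappaB, gave 2.45 and 2.50 against 2.59 to 4.75 and a difference of -1.44 ± 0.053 (adjusted p = 0.000114).

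The other 6 of the 10 were Zbtb46, Cdk5r2, Btbd4, Sema7a, Nfkbiz and Cdc42bpg, with differences of -1.79 to -1.43. Btbd4 is an older name of Zbtb46 in RefSeq, so these 2 entries may be 1 gene. Sema7a, a membrane semaphorin, and Nfkbiz, a relative of Nfkbid, had unstimulated values at the lower end of the stimulated range and overlapped it. Cdk5r2 was the least certain, since its unstimulated arrays read 1.08 and 2.87 and it lost its call in 13 of the 25 other settings.

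In the survival and cytokine receptor list, cell death genes included, 8 of 16 tested genes were lower and 1 higher (50% and 6.25%). Activation genes held 8 lower and 5 higher among 24 (33.3% and 20.8%). Over all gene symbols 13.1% were lower and 32.0% higher. Cd40 (-0.82), Il21r (-1.14), Il2rg (-0.67), Il4ra (-0.46) and Tnfrsf13b (-0.40) were lower, and so were Myc (-1.09), Nfkbiz, Nfkb2 (-0.62) and Ccnd2 (-1.10), the cyclin of cell cycle entry. In contrast Fos (0.36), Egr1 (0.43) and Egr2 (0.54) were higher in unstimulated cells, without overlap between the groups. After array-median centring 3 of the former list (18.75%) and 4 of the latter (16.7%) remained lower, against 1.38% of all gene symbols. None of either list was higher, against 2.34% of all gene symbols. Cd40, Il21r, Myc, Il2ra, Nfkbiz and Ccnd2 were among the genes still called.

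Tlr1, a partner of Tlr2 in sensing lipopeptides, was lower in unstimulated cells, at 0.59 and 0.53 against 0.75 to 2.49, with a difference of -1.18 ± 0.054 (adjusted p = 0.000154), also after array-median centring. For Tlr2 the difference was 0.04 ± 0.050 (adjusted p = 0.553), for Tlr6 -0.13 ± 0.15 (adjusted p = 0.528) and for Cd86 -0.26 ± 0.054 (adjusted p = 0.0109), the last not called after array-median centring. Irf4, a factor of B cell activation and plasma cells, read 2.90 and 2.89 against 3.05 to 5.19, a difference of -1.29 ± 0.041 (adjusted p = 9.60e-05). Fcer2a (-0.85) and Cxcr5 (-0.81) were lower in unstimulated cells as well, under every setting run. The B cell marker list held 2 genes higher and 5 lower of 12, at a median difference of -0.12. These shares were 16.7% and 41.7%, against 32.0% and 13.1% over all gene symbols. Among the higher was Cr2, whose other tested probe had the opposite sign. After array-median centring 1 gene of the list was higher and 1 lower (8.33% each), at a median of -0.070. Over all gene symbols the shares were then 2.34% and 1.38%.

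S1pr1 and Fcrla were higher in unstimulated cells. The inhibitory and Fc receptor list as a whole held 5 genes higher and 4 lower of 16 (31.25% and 25%). Over all gene symbols 32.0% were higher and 13.1% lower. S1pr1 gave 3.66 and 3.64 against 1.59 to 3.30, median 2.94, without overlap, and a difference of 0.96 ± 0.068 (adjusted p = 0.000459). Fcrla, an intracellular Fc receptor-like protein, gave 4.49 and 4.45 against 2.37 to 4.43, a difference of 0.91 ± 0.052 (adjusted p = 0.000267). Most of it lay in anti-CD40 cells, whose means were 2.46 without and 2.39 with Pam2csk4. The means were 4.43 with anti-CD86, 4.20 with Pam2csk4 and 4.17 with both, so anti-CD86 cells lay near the unstimulated ones. S1pr1 was also lowest on the arrays with anti-CD40, at 1.59 to 2.10. Both were called under every setting run. BC048507, known here only by its clone name, had the highest difference of the genes named by rule, 2.07 ± 0.18 (adjusted p = 0.000685), with 6.88 and 6.42 against 3.57 to 5.90.

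Marginal zone genes were higher in 7 of 10 cases and lower in none, and B-1 genes higher in 4 of 5, with median differences of 0.25 and 0.38, against 0.11 and 32.0% higher over all gene symbols. Cd1d1 (0.56), Cd9 (0.53) and the Notch target Hes1 (0.54) were among them. So was Cr2 (0.26), whose other tested probe had the opposite sign. No gene of either list was called after array-median centring, where 2.34% of all gene symbols were called higher. The medians were then 0.30 and 0.43, against 0.15 over all gene symbols. Follicular genes were higher in 2 of 8 cases (25%) and lower in 4 (50%), against 32.0% and 13.1% over all gene symbols. Their median difference was -0.22. Cd55 (0.26) was among the higher, and Satb1 (-0.28), Fcer2a, Cxcr5 and Ccr7 were lower. Ccr7 was saturated on 4 of the 12 arrays, so no size is given.

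Mitosis and DNA synthesis genes were higher in unstimulated cells in 18 of 26 cases, with a median difference of 0.39, and 1 was lower, against 32.0% higher and 13.1% lower over all gene symbols. Kif20a, a kinesin of cell division, gave 0.37 and 0.48 against -0.69 to -0.10, a difference of 0.72 ± 0.054 (adjusted p = 0.000504). Aurkb (0.81), Cenpa (0.58), Hmmr (0.51), Foxm1 (0.50) and Mki67 (0.25) were also higher, and Birc5 (-0.42) was lower. After array-median centring 2 genes, Kif20a and Aurkb, remained called (7.69%, against 2.34% of all gene symbols), at a median of 0.44. With the same-slide pairs averaged 9 were called higher (34.6%, against 9.72% of all gene symbols). Quiescence genes were higher in 7 of 19 cases (36.8%), near the 32.0% of all gene symbols, among them Klf4 (0.58), Btg2 (0.41) and Txnip (0.38), and 1, Foxj1 (-0.83), was lower. Macrophage and neutrophil genes were higher in 10 of 21 cases (47.6%, against 32.0% of all gene symbols) and lower in 1. Without the anti-CD40 and Pam2csk4 arrays 6 were higher (28.6%, near the 27.0% of all gene symbols in that fit). The highest differences were those of Ela2 (Elane in RefSeq, 0.90), Mpo (0.78) and Emr1 (Adgre1 in RefSeq, 0.62), and Mpo and Ela2 were called under every setting run. The part of such cells in the mitosis genes was not tested.

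Genes of liver secretory proteins were expressed in 9 of 14 cases (64.3%), near the 57.2% of all gene symbols. The other solid tissue lists fell below that share. Alb, which encodes albumin, gave 2.20 and 2.15, Ahsg 2.27 and 2.37 and Apoa2 1.30 and 1.31, while Apob, Apoc3, Fga and Cps1 were on neither array. The median level of the 9 expressed genes was 0.82 and 0.73 unstimulated, -0.47 to 0.19 on the 8 arrays of 4 stimulated conditions, and -3.04 and -3.47 on the anti-CD40 and Pam2csk4 arrays, where only 6 and 3 of the 9 were well above background. Those 9 genes were chosen for being detected in the unstimulated cells. Over all 14 genes the medians were -1.78 and -1.95 unstimulated, within the -2.18 to -1.53 of the 8 arrays, and -4.01 and -4.26 on the anti-CD40 and Pam2csk4 arrays, and 10 and 9 genes were detected on the unstimulated arrays, 8 to 11 on the 8 arrays and 6 and 3 on the last pair. The plot of liver genes by array shows the lower values on that pair.

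**Figure D4:**
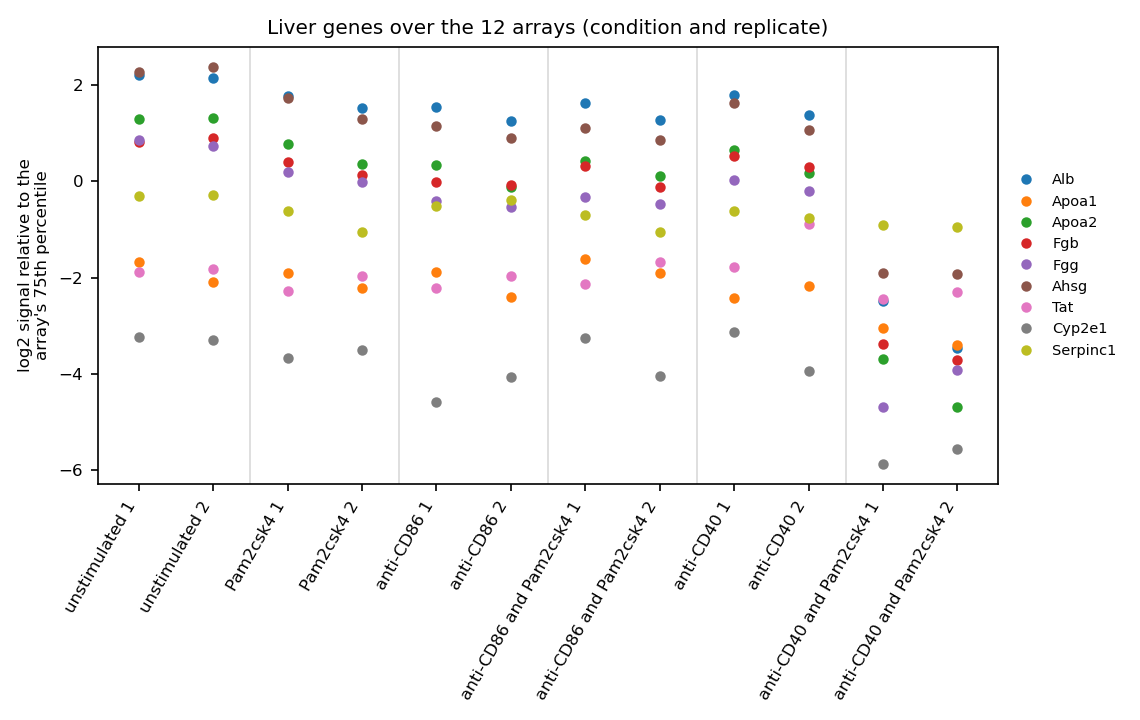
Levels of the liver genes expressed in unstimulated RB cells, on each of the 12 arrays, as log2 processed signal relative to the array's 75th percentile. Each point is 1 gene on 1 array, in the colour of the gene; the medians are 0.82 and 0.73 on the unstimulated arrays and -3.04 and -3.47 on the anti-CD40 and Pam2csk4 arrays.

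The liver genes Ahsg and Fabp1 and 7 major urinary protein (Mup) entries filled 9 of the 10 places among the genes named as highest in unstimulated cells. Of the Mup entries, Mup-ps2, Mup-ps11 and Mup-ps15 carry names of pseudogenes. Mup1 gave 3.82 and 3.87 against -1.38 to 3.29, median 2.92, without overlap, a difference of 1.63 ± 0.049 (adjusted p = 8.16e-05). Fabp1, a liver fatty acid carrier, had a difference of 1.66 ± 0.12 (adjusted p = 0.000467) and Ahsg of 1.59 ± 0.077 (adjusted p = 0.000173). Without the anti-CD40 and Pam2csk4 arrays, left out after seeing the data, the differences were 0.74 for Mup1, 0.88 for Fabp1 and 0.93 for Ahsg and remained called. The 7 Mup entries are not independent, since 4 of their 21 probe pairs share at least 20 bases. The probes of Mup1 and Mup2 share the longest run, 57 bases, and their first 30 bases are shown with what both stretches hold in capitals.
Mup1: GTCTATCCACATGTTACCTAGGATACCtca
Mup2: ccaGTCTATCCACATGTTACCTAGGATACC
Mup2 gave 3.88 and 3.92, close to Mup1. What gave these signals in B cell preparations was not tested.

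A few genes crossed the detection limit, and these were chosen after their values were seen. Hoxa9, Defcr-rs7, Bclp2, Clip2 and Fzd1 were detected on both unstimulated arrays and on no stimulated one, near the detection limit, and the bounds on how much higher they were ran from at least 1.11-fold for Fzd1 to at least 1.41-fold for Hoxa9. Lalba, Kcnu1 and C030048H21Rik were on neither unstimulated array and on all 10 stimulated ones. Lalba, which encodes the milk protein alpha-lactalbumin, was at least 4.51-fold lower in unstimulated cells, Kcnu1 at least 2.16-fold and C030048H21Rik at least 1.74-fold. Their detection chose them, so no test is given. Each bound sets the mean of the bright arrays against the detection limit of each dim array, taken as its lowest detected signal, or the probe's own signal where that was higher.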

How the data were processed

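RNA of 12 RB cell samples was labelled with Cy3 and hybridised on a one-colour custom mouse array annotated to mm9. The deposited scanner files hold intensity values, background-subtracted by the authors with Feature Extraction 10.5.1.1, and the deposited table holds the authors' log2 values, centred near each array's 75th percentile, used as an alternative. Outlier and control spots were left out, spots of one probe were averaged, and log2 signal minus each array's 75th percentile was used. The software's call per spot gave detection. No column lacked a sample. The contrast was fitted with limma 3.58.1 (R 4.3.3) on 31599 probes (those that both arrays of some condition detected), with slide as a term because both unstimulated arrays lie on slide 1, and called at adjusted p under 0.05. Tested on simulated data, this fit recovered 25 of 50 probes changed by 0.5 log2 and 41 of 50 changed by 1, with 10 false calls. The simulation held independent noise, few changed probes and no scaling error between arrays. Its false calls therefore do not measure those in these data. Named genes were the listed genes, the 30 brightest symbols, and the 10 highest and 10 lowest differences among genes called, well above background and unsaturated on all 12 arrays and of one sign against all 5 conditions. Names follow the array, updated through RefSeq (GRCm38.p6), which also gave the promoters. The genes and lists were chosen with earlier results of these data known. The number of arrays limits the precision. Alternatives covered scaling, background correction, the filter, the slide, the test, pairing and each array left out. Some listed genes are not reported here by name.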

Additional observations from a re-analysis of the deposited data

How the results depend on the processing

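The count of 22400 expressed genes moved by less than 1.5 times under every alternative run, from 21470 with saturated probes left out to 30280 with the scanner's positive-and-significant call, and stood at 22755 and 24630 with either unstimulated array left out. Of the 30 brightest symbols 4 remained with normexp background correction and 18 with the median over a gene's probes, and 26 to 27 with one array left out. Of 6742 higher and 4937 lower probes, array-median centring gave 513 and 651, no filter on dim probes 3577 and 2637, no slide term 3218 and 1500, the methods' test (a one-way analysis without moderation) 3074 and 1402, and same-slide pairs averaged, added after seeing the data, 1826 and 1592. Leaving out 1 array gave 3560 to 6930 higher and 2758 to 5122 lower. Without unstimulated replicate 1 there were 3813 and 2879 and without unstimulated replicate 2 there were 3560 and 2758, the lone unstimulated array then being assumed to vary like the other groups. With the replicate block in place of the slide term there were 5861 and 3094, and with the replicate block beside it 5864 and 5088. The difference between replicates 2 and 1 of the unstimulated cells correlated with those of the other conditions at -0.14 to 0.14. The 4 pairs split between slides, whose differences hold the slide difference, correlated with each other at 0.65 to 0.81. Because both unstimulated arrays lie on slide 1, these correlations cannot show whether the replicate numbers paired the samples. H2-Ob and Hbb-b1, lower by -0.14 and -0.13, turned to 0.070 and 0.0088 without the slide term, with the replicate block in its place, and by the methods' test, and were not called there. The cause of these shifts was not tested. Signal near background limits the genes below the 75th percentile, and saturation limits 1007 expressed genes.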
